A study of Mus musculus with 21 samples.

Results

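Ttn encodes titin, the giant spring protein of striated muscle, and the data described here are the accessible chromatin regions of this gene in myonuclei of mouse quadriceps before and after exhaustive exercise. Regions were taken if they overlapped the Ttn gene body on GRCm39 (GENCODE M39) or lay closer to a coding start site of Ttn than to that of any other gene. This gave 55 regions of 41411 that were listed in the deposited tables for at least 1 contrast, of which 53 overlapped the gene body and 2 lay upstream of it. The gene itself was chosen for its closing and its regions were selected on the same measured values that are given below, because a table lists a region only when it passed a false discovery rate of 0.05 against the sedentary group. All values of listed regions are therefore a description, with no test.

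Chromatin accessibility was measured by ATAC-seq, which counts the cuts of a transposase in open DNA, in nuclei sorted from whole quadriceps with an antibody against PCM1, a marker of muscle fibre nuclei. Trained mice ran voluntarily on wheels for 12 weeks and were sacrificed 0 h, 6 h or 72 h after 1 exhaustive treadmill bout. Untrained mice ran the same treadmill test to exhaustion with no wheel training, and sedentary mice did no exercise. All were adult wild-type C57/Bl6 males, and each of the 7 groups held 3 samples, 21 in all. Trained mice were not sampled at rest, so in a trained group training and the bout cannot be told apart. The paper reports better performance of trained than of untrained mice in this type of test, so the running done need not have been equal.

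Each region has 1 level per group, the mean normalised read count over the samples of that group, which the tables give on a log2 scale as the DiffBind concentration. A difference below is the log2 level of the exercised group minus the log2 level of the sedentary group, so values below 0 are losses of accessibility. All contrasts use the same sedentary samples, and the sedentary level of a region was identical in every table (largest difference 0). The tables hold group means only. The spread between samples and the depth per sample are therefore unknown here, and no level can be given with a replicate error. Fewer nuclei with open chromatin at a region and less open chromatin per nucleus cannot be told apart in such bulk samples. A region that is not listed in a contrast has no exercised level there and may have changed by less than the authors' test could detect. In regions with a sedentary level in the same range as Ttn, 258 to 14242, the smallest loss listed anywhere in the genome was -0.36 for trained 0 h, -0.40 for untrained 0 h, -0.43 for trained 6 h, -0.40 for untrained 6 h and -0.47 for trained 72 h. These are single extreme values. In both 0 h groups, 5% of these listed losses were smaller in size than -0.57. That value was -0.58 for trained 6 h, -0.61 for untrained 6 h and -0.62 for trained 72 h. An unlisted region may therefore have changed by more than the smallest listed loss.

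Titin spans the sarcomere from the Z-disc to the M-band. Its amino-terminal part is anchored in the Z-disc, the following I-band part acts as a molecular spring that sets passive tension, and the carboxy-terminal A-band and M-band parts bind myosin and myosin-binding protein C and carry a kinase domain. The gene is transcribed in the same order, so its 5′ part encodes the Z-disc and I-band portions and its 3′ part the A-band and M-band portions. Alternative splicing of the I-band exons, guided by RBM20 and other factors, changes the stiffness of the spring.

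On GRCm39 the gene (ENSMUSG00000051747.18) occupies chr2:76534136-76812891 on the minus strand, a length of 278756 bases. GENCODE annotates 24 transcripts, 20 of them protein coding. The longest, Ttn-203, has 347 exons and 106170 coding bases, and exon numbers below are those of Ttn-203. A much shorter coding transcript, Ttn-202, shares the 5′ start and ends 68.6 kb into the gene with 16524 coding bases. On the opposite strand lie 3 long non-coding RNA genes, Gm74880 at 110 to 136 kb from the Ttn start, Gm13938 at 196 to 260 kb and Gm75564 at 218 to 284 kb. ATAC-seq carries no strand, so a region over both genes cannot be assigned to either of them.

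The promoter of Ttn and a stretch from the regions with the deepest loss in trained and in untrained muscle at 0 h are shown here because the results below turn on the start site and on these regions. The first sequence is the RefSeq promoter (table build GRCm38.p6), which matched chromosome 2 of GRCm39 exactly once, and is printed for the 250 bases before the start site at base 76812891. Capitals mark a MEF2 motif, the binding site of the myocyte enhancer factor 2 family, 157 to 166 bases before the start and a TATAA match 24 to 28 bases before it. In the other sequences, read from GRCm39 on the minus strand, capitals mark coding exon bases.
Ttn promoter, chr2:76812892-76813141: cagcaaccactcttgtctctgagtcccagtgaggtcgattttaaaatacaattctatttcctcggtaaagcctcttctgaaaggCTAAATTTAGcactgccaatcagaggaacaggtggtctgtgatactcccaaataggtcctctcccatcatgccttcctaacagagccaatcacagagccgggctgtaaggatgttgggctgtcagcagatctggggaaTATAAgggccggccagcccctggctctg
Middle of the deepest loss in trained muscle at 0 h, chr2:76612164-76612463: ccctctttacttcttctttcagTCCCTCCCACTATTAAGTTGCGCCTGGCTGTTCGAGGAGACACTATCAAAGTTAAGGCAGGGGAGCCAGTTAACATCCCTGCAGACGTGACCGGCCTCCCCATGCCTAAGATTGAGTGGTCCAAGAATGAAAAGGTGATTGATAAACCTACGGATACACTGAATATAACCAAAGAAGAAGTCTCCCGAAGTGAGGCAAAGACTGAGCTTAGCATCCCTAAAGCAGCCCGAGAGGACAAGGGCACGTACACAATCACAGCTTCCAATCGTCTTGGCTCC
Middle of the deepest loss in untrained muscle at 0 h, chr2:76781614-76781913: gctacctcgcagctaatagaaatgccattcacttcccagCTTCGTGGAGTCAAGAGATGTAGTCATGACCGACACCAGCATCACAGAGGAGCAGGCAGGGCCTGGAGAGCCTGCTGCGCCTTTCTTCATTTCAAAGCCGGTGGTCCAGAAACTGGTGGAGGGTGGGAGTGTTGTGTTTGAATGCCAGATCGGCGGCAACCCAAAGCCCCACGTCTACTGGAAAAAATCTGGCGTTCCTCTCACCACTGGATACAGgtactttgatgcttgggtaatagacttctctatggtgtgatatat

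In the stretch from the region with the deepest loss in trained 0 h muscle, 278 of 300 bases are coding. They belong to exon 264 at chr2:76612133-76612441. In the stretch from the region with the deepest loss in untrained 0 h muscle, 216 of 300 bases are coding. They make up exon 20 at chr2:76781659-76781874. The whole regions measure 963 and 7964 bases and have 1 level each, so these stretches and exons have no level of their own. A MEF2 motif occurs on either strand in 3.10% of 21584 promoters of protein-coding genes over the same 250 bases, and TATAA in 23.4% of them. The TATAA search was added after the sequence had been seen.

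The accessible regions of Ttn were broad and covered most of the gene. Together the 53 regions covered 78.5% of the gene body and 92.2% of the exonic bases of Ttn-203, while exons make up 38.6% of the body. Of these regions, 49 held at least part of an exon and 4 lay in introns. Their median width was 2290 bases, against 576 bases for all listed regions. A width of at least 2 kb was seen in 33 of the 53 (62.3%), against 4.47% of all listed regions, and Ttn held 6 of the 51 regions in the genome of at least 10 kb. The widest, chr2:76743797-76766098, measured 22302 bases and contained exons 41 to 46 and the last exon of Ttn-202. In sedentary muscle the signal of the body regions had a median of 480 normalised reads per kb (335 to 2296), against a median of 908 over all listed regions. The highest value was at the start site, and the next was 889 reads per kb.

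At 0 h after the bout, losses were listed along most of the gene in trained muscle. Of 55 Ttn regions, 53 were listed with a loss (96.4%), where the share among all 41411 regions was 71.5%, and none with a gain, against 10.8% of all regions. These losses covered 77.3% of the gene body. Within the body, 51 regions were lost with a median difference of -0.69 (-1.43 to -0.46), and their summed level was 75320 in trained 0 h muscle against 121911 in sedentary muscle, which is 61.8% of it. The median over all 53, -0.69, was smaller in size than the median of -0.91 over all losses of this contrast.

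The depth of the loss in trained 0 h muscle varied along the gene. With the gene divided into 10 bins of equal length, medians lay between -0.54 and -0.68 in bins 1 to 6, between -0.86 and -0.96 in bins 7 to 9, and at -0.61 in the last. The deepest loss, -1.43, was in the region over exons 263 to 265, chr2:76611833-76612795, with 152 normalised reads in trained 0 h muscle and 410 in sedentary muscle. That is 37.1% of the sedentary level. Next came chr2:76595816-76599009 over exon 288, a large exon that covers 92.3% of the region, with 658 reads in trained 0 h muscle, against 1485 in sedentary muscle (-1.17). Both lie in the 3′ part of the gene. In 6 gene-body regions the trained 0 h level was below 50% of the sedentary level.

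The loss at the start site in trained 0 h muscle lay within the range of the medians of bins 1 to 6 (-0.54 to -0.68). The region over the start site, chr2:76810063-76813839, holds 3 annotated coding start sites. It had 5682 normalised reads in trained 0 h muscle and 8671 in sedentary muscle, a difference of -0.61. It was listed in no other contrast. The 2 gene-body regions that were not listed in trained 0 h muscle were the intronic chr2:76793341-76793975 and chr2:76529255-76536844 over the last 3 exons.

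In untrained muscle at 0 h the loss was confined, among listed regions, to the 5′ part of the gene. There were 9 Ttn regions with a loss (16.4%), against 43.1% of all 41411 regions, and none with a gain, against 7.91%. The 7 within the body lay between 6.7 and 69.1 kb from the start, covered 15.9% of the body and had a summed level of 14067 in untrained 0 h muscle, against 24421 in sedentary muscle. The last of them, the widest region of the gene, ran from 46.8 to 69.1 kb, and Ttn-202 ends at 68.6 kb. A region has 1 level only, so where the loss ended inside it was not measured. Of the 8 body regions that overlap the short transcript Ttn-202, 7 were listed with a loss, and 0 of the 45 beyond it. The exception within it was the region over the start site. This boundary was noticed after the values were seen. The same 45 regions beyond Ttn-202 held 44 of the losses of trained 0 h muscle.

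Inside this 5′ part the losses of untrained muscle were deep. The region over exons 14 to 24, chr2:76777783-76785746, had 1688 normalised reads in untrained 0 h muscle and 3905 in sedentary muscle (-1.21), 43.2% of the sedentary level. Its 3′ neighbour over exons 25 to 29, chr2:76774278-76777621, had 769 reads in untrained 0 h muscle and 1628 in sedentary muscle (-1.08). The widest region of the gene lost least, with 9150 reads in untrained 0 h muscle against 14242 in sedentary muscle (-0.64). The median over the 9 losses was -0.93, close to the -0.90 over all losses of this contrast.

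**Figure D1:**
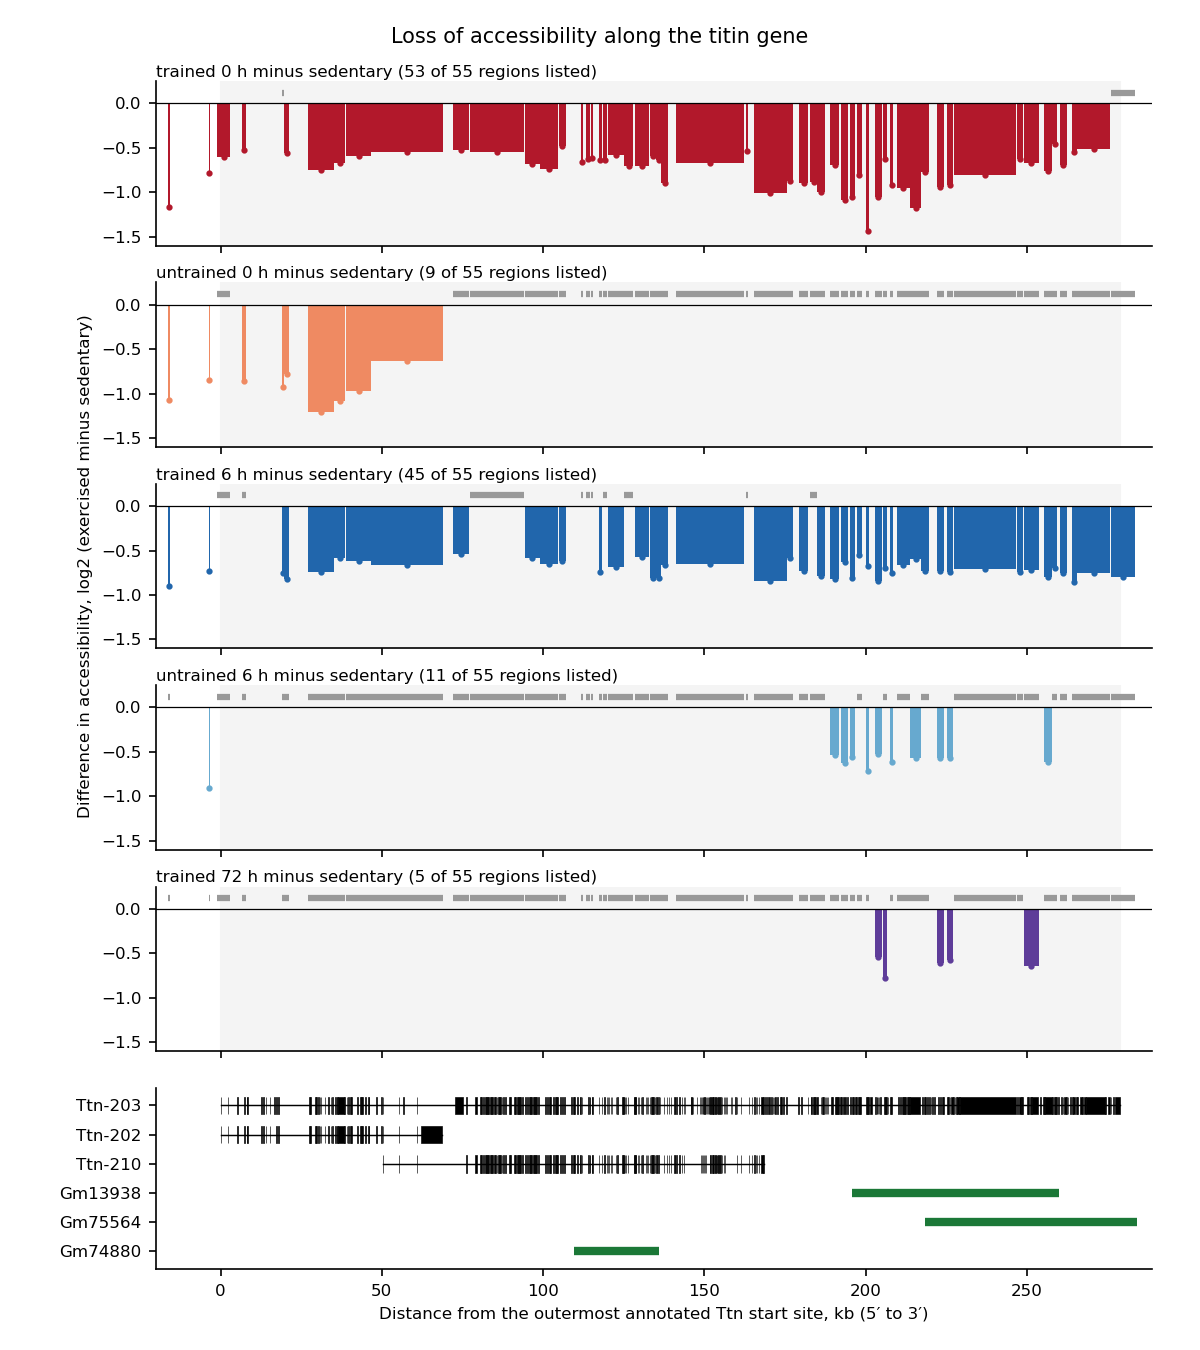
Difference in accessibility (log2, exercised minus sedentary, y axis) of each Ttn region against its distance from the outermost start site in kb (x axis), with 1 panel per contrast; coloured blocks are listed regions drawn to width, grey blocks above 0 are regions not listed in that contrast, and the bottom panel shows 3 coding transcripts (black, exons as boxes) and 3 antisense RNA genes (green). Losses run along most of the gene in trained muscle at 0 h (53 of 55 regions) and 6 h (45 of 55). They stand in the 5′ part only at 0 h in untrained muscle. Within the body they stand in the 3′ part only at 6 h in untrained and at 72 h in trained muscle.

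In the gene-body regions listed in both trained and untrained muscle at 0 h, the untrained level was the lower. Of the 7 body regions lost in untrained muscle, 6 were also listed in trained muscle, which is 85.7% of the untrained list and 11.8% of the trained list. Since the sedentary level is common to both, the exercised levels can be set side by side. They were 59.5% to 69.7% of the sedentary level in trained muscle and 43.2% to 64.2% in untrained muscle, and untrained was below trained in 6 of 6. In exons 14 to 24, for example, trained 0 h muscle had 2322 reads against 1688 in untrained 0 h muscle. The difference between the 2 exercised groups was not tested, since values per sample are not used here. Trained 0 h muscle listed 51 of the 53 body regions, so the untrained list in effect set which regions could be compared. The 46 body regions not listed in untrained 0 h muscle have no untrained level, and the order holds for these 6 only.

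At 6 h losses were still listed along most of the gene in trained muscle. A loss was listed in 45 of 55 Ttn regions (81.8%), against 25.4% of all regions, and a gain in none, against 3.05%. The 43 regions in the body covered 67.5% of it, with a summed level of 63862 in trained 6 h muscle against 103875 in sedentary muscle, or 61.5%. The differences were more even than at 0 h, from -0.54 to -0.86 in the body with a standard deviation between the 45 regions of 0.09, against 0.21 between the 53 regions of trained 0 h muscle. No body region was below 50% of the sedentary level. Among the deepest were chr2:76547467-76549025 over exons 335 to 337, with 460 reads in trained 6 h muscle and 833 in sedentary muscle (-0.86), and chr2:76607874-76609967 over exons 267 to 272, with 634 reads in trained 6 h muscle and 1141 in sedentary muscle (-0.85).

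The 10 body regions not listed in trained 6 h muscle included the start site. Another 5 of them overlapped Gm74880, and one was the 17007-base region over exons 49 to 77, which had 7131 reads in trained 0 h muscle and 10427 in sedentary muscle (-0.55). Of the 10, 9 were listed in trained 0 h muscle alone and 1 in both 0 h groups. Conversely, the region over the last 3 exons was listed in trained 6 h muscle alone, with 3164 reads against 5507 in sedentary muscle (-0.80). A total of 41 body regions were listed in trained muscle at both 0 h and 6 h, with medians of -0.72 at 6 h and -0.70 at 0 h. The 6 h loss was the deeper in 18 of them and the 0 h loss in 23.

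In untrained muscle at 6 h the losses listed within the gene body lay at the other end of the gene from those at 0 h. There were 11 Ttn regions with a loss (20.0%), against 10.2% of all regions, and none with a gain, against 9.99%. The 10 in the body lay between 189 and 258 kb from the start and covered 7.29% of the body, with a summed level of 6664 in untrained 6 h muscle against 9928 in sedentary muscle. The other was the nearer of the 2 upstream regions, which was also listed in untrained 0 h muscle and had the largest loss of the contrast (-0.90). No body region was listed in untrained muscle at both times. The differences were small, with a median over the 11 of -0.57, while all losses of this contrast had a median of -0.88. At like sedentary levels, only 5% of the losses listed in untrained 6 h muscle were smaller in size than -0.61. Other body regions may have lost a similar amount without being listed. Within the body, exons 263 to 265 had the deepest loss, with 250 reads in untrained 6 h muscle against 410 in sedentary muscle (-0.71), followed by the region chr2:76618234-76620676 over exons 248 to 254 with 660 reads, against 1014 in sedentary muscle (-0.62). Of the 16 body regions over the antisense gene Gm13938, 8 were listed, and of the other 37, 2. For Gm75564, which overlaps much of the same stretch, 3 of 12 were listed and 7 of the other 41. For Gm74880 it was 0 of 10 and 10 of the other 43.

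All 10 of these body regions were also listed in trained muscle at 6 h, which is 23.3% of the trained list. They were at 55.6% to 66.0% of the sedentary level in trained 6 h muscle and at 61.1% to 69.5% in untrained 6 h muscle. Trained was below untrained in 9 of 10, the opposite order to that at 0 h. These are other regions than the 6 compared at 0 h, and the change of order was not tested. Here too the untrained list set which regions could be compared.

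**Figure D2:**
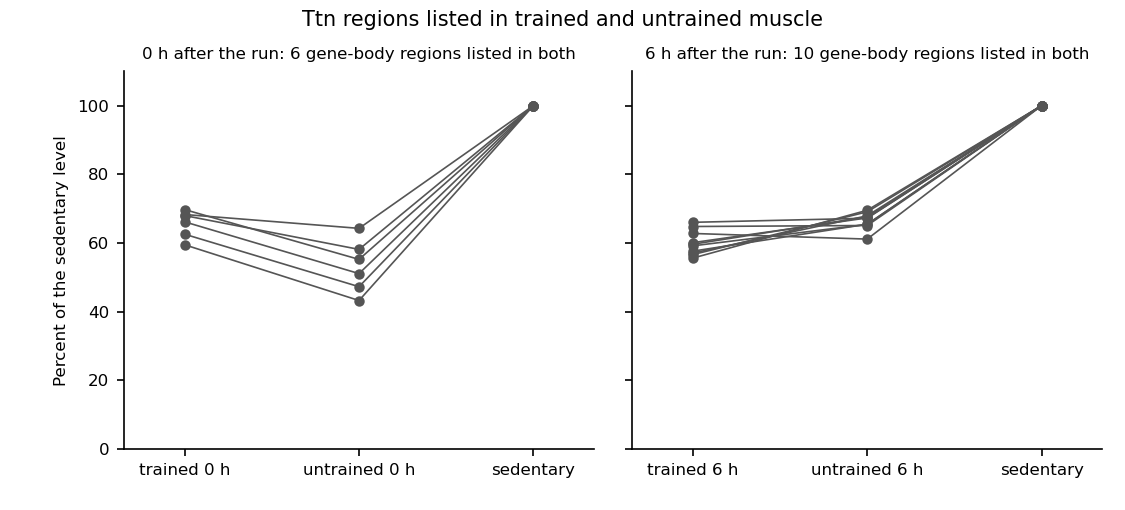
Level of each Ttn gene-body region listed in both training states, as percent of its sedentary level (y axis), in trained, untrained and sedentary muscle (x axis) at 0 h (left, 6 regions) and 6 h (right, 10 regions); each line is 1 region and points are group means. At 0 h the 6 untrained points are below their trained partners, and at 6 h the trained point is the lower in 9 of 10.

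At 72 h a loss was listed in trained muscle only, and the table of untrained 72 h muscle lists no region anywhere. In trained 72 h muscle 5 Ttn regions were lost (9.09%), against 6.27% of all regions, and none was gained, against 0.0652%. All 5 lay between 203 and 254 kb from the start and overlapped Gm13938, and 3 of them overlapped Gm75564 as well. All 5 were also listed in trained muscle at 0 h and 6 h. They covered 4.54% of the body, with a summed level of 4161 in trained 72 h muscle and 6439 in sedentary muscle, or 64.6%. The deepest, chr2:76606205-76607634 over exons 273 to 275, had 735 reads in trained muscle at 0 h, 705 at 6 h and 665 at 72 h, against 1138 in sedentary muscle. Its differences were -0.63, -0.69 and -0.77. It was the only 1 of the 5 with a larger loss at 72 h than at 6 h, and in the other 4 the loss was smaller at 72 h. The region over exons 267 to 272, for example, had differences of -1.05 at 0 h, -0.85 at 6 h and -0.55 at 72 h. The next were chr2:76559137-76563866 over exons 315 to 319, with 1360 reads in trained 72 h muscle against 2118 in sedentary muscle (-0.64), and chr2:76588552-76590913 over exons 297 to 300, with 762 against 1162 (-0.61). A total of 3 body regions were listed in 4 contrasts, namely trained 0 h, untrained 6 h, trained 6 h and trained 72 h. No Ttn region was listed in all 5.

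**Figure D3:**
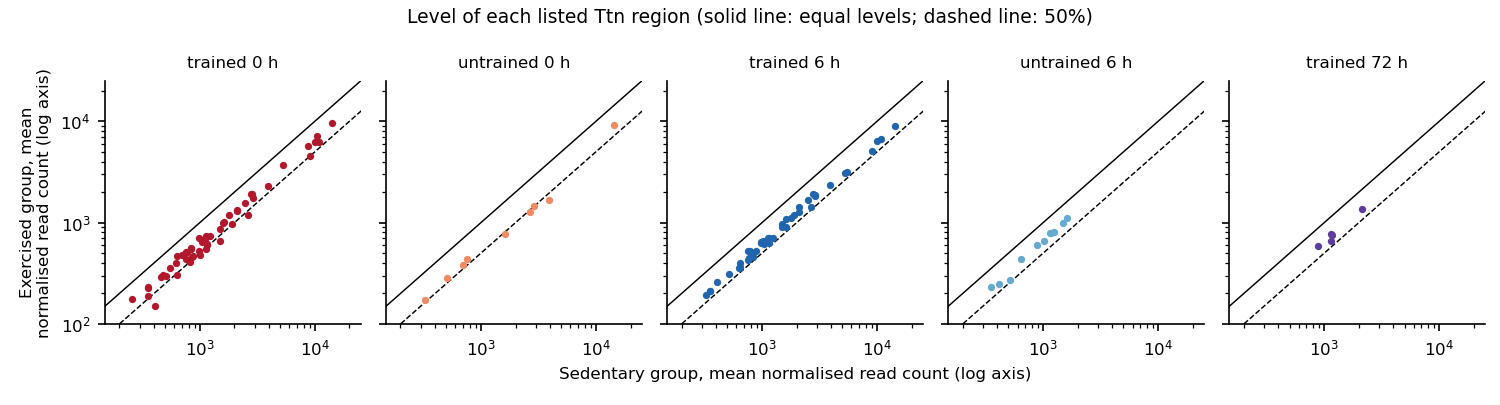
Mean normalised read count of each listed Ttn region in the exercised group (y axis, log scale) against the sedentary group (x axis, log scale), 1 panel per contrast; the solid line marks equal levels and the dashed line 50% of the sedentary level. All points lie under the solid line, across sedentary levels of 327 to 14242 at trained 6 h, and only the 0 h panels have gene-body regions under the dashed line (6 in trained and 2 in untrained muscle).

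Both regions upstream of the gene closed with it. The nearer, chr2:76816091-76816553, 3200 bases upstream of the closest start site, had 297 reads in trained 0 h, 285 in untrained 0 h, 309 in trained 6 h and 275 in untrained 6 h muscle, against 513 in sedentary muscle. Its difference of -0.90 in untrained 6 h muscle was the largest among the Ttn regions of that contrast. The farther, chr2:76828589-76829228, 15698 bases upstream, had the highest signal per kb in sedentary muscle of all 55 regions (4144) and contained 2 CAGCTG motifs, the E-box bound by MyoD family factors. It had 1178 reads in trained 0 h, 1266 in untrained 0 h and 1428 in trained 6 h muscle, against 2652 in sedentary muscle, with differences of -1.17, -1.07 and -0.89. It was not listed in untrained 6 h muscle. The nearer region held none of the 5 motifs searched.

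Outside the Ttn regions, lost regions covered a smaller share of the sequence than within the gene. In a window as long as the gene that begins past the farther upstream region, they covered 2.54% in trained 0 h, 1.89% in untrained 0 h, 3.14% in trained 6 h, 0.482% in untrained 6 h and 0.528% in trained 72 h muscle. In the window of the same length beyond the last Ttn region at the 3′ end they covered 1.14%, 0.733%, 0.366%, 0 and 0.579% in these groups. The first region past the rule on the 5′ side, chr2:76851020-76851329 near Ccdc141, was gained in trained 0 h muscle (0.84), and the first on the 3′ side, chr2:76505131-76506264 at Plekha3, was lost in trained 0 h muscle (-0.73).

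GC content and motifs were not used to choose the regions, although the readout decided which regions are listed at all. The GC content of the 53 body regions had a median of 43.0% (38.4 to 49.3), against 50.5% over all listed regions. In the central 300 bases, the SP/KLF-type motif GGGCGG occurred in 0 of 53 and in 15.5% of 36897 listed regions of at least that width, CAGCTG in 5 (9.43%) and 27.3%, the AP-1 motif TGANTCA in 3 (5.66%) and 13.5%, the MEF2 motif in 1 (1.89%) and 6.70%, and the TEAD motif CATTCC in 8 (15.1%) and 17.0%. Both strands were searched, and a match is not evidence of binding. The central 300 bases are a smaller part of a Ttn region (median width 2290 bases) than of other regions (576 bases over all listed). The motif shares are therefore not over like parts, and no comparison matched for width was made. The median sedentary signal was 515 reads per kb in the 7 body regions listed in untrained 0 h muscle and 465 in the 46 not listed there, and 478 in the 10 listed in untrained 6 h muscle and 480 in the 43 not listed.

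Regions of at least 2 kb were used to set Ttn beside regions of like width, a comparison added after the values were seen. In trained 0 h muscle 97.0% of 33 such Ttn regions were lost, against 83.7% of 1817 others, but in untrained 0 h muscle 12.1% of Ttn and 30.5% of the others. In trained 6 h muscle the shares were 87.9% for Ttn and 16.8% for the others, in untrained 6 h muscle 21.2% and 2.20%, and in trained 72 h muscle 12.1% and 1.21%. The median loss was smaller in size in Ttn than in the others in trained 0 h muscle (-0.72 for Ttn, -0.96 for the others), trained 6 h muscle (-0.71 and -0.83), untrained 6 h muscle (-0.57 and -0.84) and trained 72 h muscle (-0.59 and -0.80). In untrained 0 h muscle it was larger in size in Ttn (-1.03) than in the others (-0.98). These shares were not tested, because the gene was chosen on them.

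Among 2566 protein-coding genes with a body of at least 100 kb, Ttn had the largest share of body inside lost regions in trained 0 h, trained 6 h, untrained 6 h and trained 72 h muscle, and the third largest in untrained 0 h muscle, where the nuclear factor I gene Nfix was the highest (25.2%). The median of these genes was 0.447% in trained 0 h and 0 in trained 6 h muscle. The rank depends on the cut in length. Pfkfb3, at 82.6 kb, had 40.9% of its body lost in untrained 6 h muscle, against 7.29% for Ttn. By lost bases among 21584 genes, Ttn had rank 3 in untrained 6 h muscle. Its rank was 2 in untrained 0 h and trained 72 h muscle, and 1 in trained 0 h and trained 6 h muscle. The change of place of listed losses in untrained muscle was the largest among the genes compared. In 44 genes with at least 5 lost regions at both times, the mean position of lost bases moved between 0 h and 6 h by a median of 3.51 points of gene length (-23.2 to 59.8). Ttn, with 76.3% at 6 h and 16.5% at 0 h, had the value of 59.8 points and Fgfr2, a growth factor receptor gene, was next with 27.8. This comparison was chosen after the pattern in Ttn had been seen and carries no test.

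**Figure D4:**
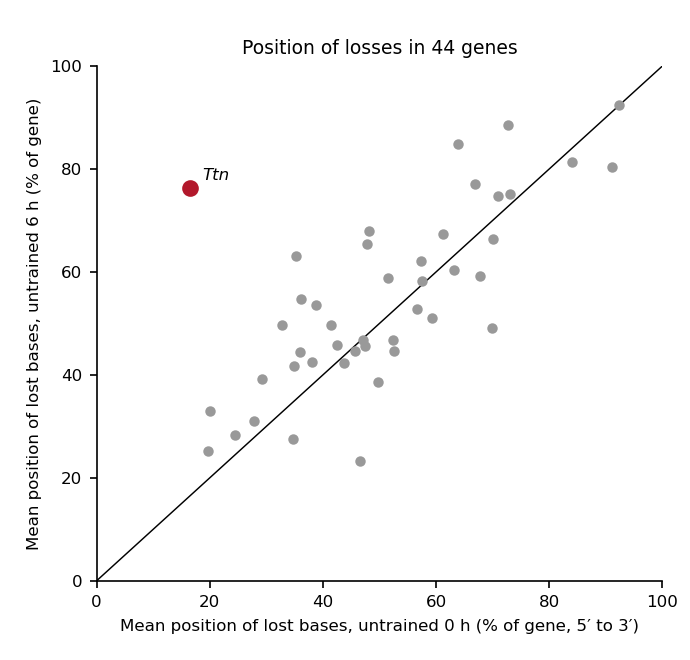
Mean position of bases inside lost regions, as percent of gene length from 5′ to 3′, in untrained 6 h muscle (y axis) against untrained 0 h muscle (x axis) for 44 genes with at least 5 lost regions at both times; the line marks equal positions and the red point is Ttn. Ttn stands at 76.3% at 6 h and 16.5% at 0 h, while the next gene moved by 27.8 points.

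Other giant genes of the muscle fibre had smaller parts of their length inside lost regions in trained 0 h, trained 6 h, untrained 6 h and trained 72 h muscle, while in untrained 0 h muscle Ryr1 and Cacna1s exceeded the 15.9% of Ttn. Ryr1, the calcium release channel of the sarcoplasmic reticulum, had lost regions over 33.6% of its body in trained 0 h, 20.2% in untrained 0 h and 22.3% in trained 6 h muscle, and was the gene of at least 50 kb, of 5241 compared, whose shares over the 5 contrasts were nearest to those of Ttn. It was followed by Ahdc1, Nfic, Jph2, which tethers the sarcoplasmic reticulum to the T-tubule, and Pfkfb3, a regulator of glycolysis. The summed distance in percentage points was 105 for Ryr1 and 112 for Pfkfb3, so none was close. Cacna1s, the voltage sensor of the T-tubule, had 15.1%, 17.0% and 2.33% in these groups. Neb, which encodes the thin-filament ruler nebulin and at 242 kb is close to Ttn in length, had 6.84%, 3.64% and 0.730%, with gains over 0.148%, 1.92% and 0.314%. Dmd (dystrophin) had 0.0794%, 0.0520% and 0.0275% and Nebl (nebulette) had no listed loss.

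**Figure D5:**
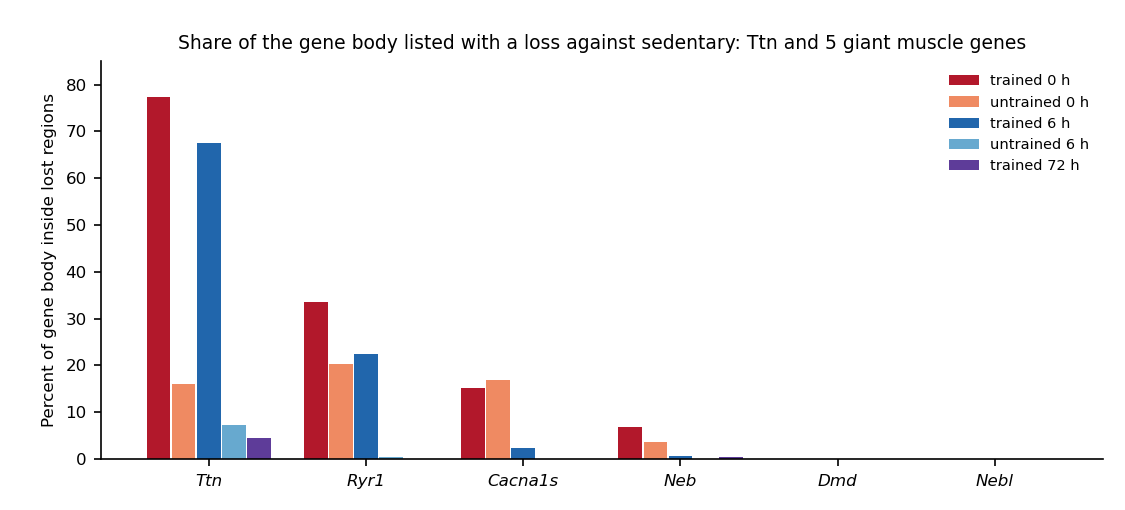
Percent of the gene body inside regions listed with a loss (y axis, from 0) for Ttn and 5 other giant muscle genes (x axis), with 1 bar per contrast against sedentary. Ttn has 77.3% in trained 0 h and 67.5% in trained 6 h muscle, and the next highest bar among the genes shown is Ryr1 with 33.6% in trained 0 h muscle.

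Genes whose proteins bind or neighbour titin were described from lists chosen with earlier results known. Of all protein-coding genes, 44.8% had a loss over the body in trained 0 h, 24.6% in untrained 0 h, 16.5% in trained 6 h and 8.69% in untrained 6 h muscle, and 7.77%, 6.34%, 2.96% and 8.38% had a gain in these groups. These shares are over genes of all lengths and are given as a background only. Of 11 Z-disc partners, 8 had a loss in trained 0 h, 7 in untrained 0 h, 7 in trained 6 h and 1 in untrained 6 h muscle, while 4, 4, 2 and 5 had a gain. Tcap, which caps the amino-terminal end of titin, lay whole (100%) inside a lost region in trained 0 h, untrained 0 h and trained 6 h muscle. Actn3, the fast-fibre α-actinin, had 98.9% in both 0 h groups and 14.2% in trained 6 h muscle, and Myoz1, a calcineurin-binding Z-disc protein, 59.2% in both 0 h groups. All of these are far shorter than Ttn, so 1 region can span them.

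Of 8 I-band partners, 4 had a loss in trained 0 h, 3 in untrained 0 h, 2 in trained 6 h and 1 in untrained 6 h muscle, and 2, 1, 2 and 4 a gain. Capn3, a protease held on titin, had 7.76%, 6.89%, 4.81% and 0 of its body lost in these groups, Smpx 2.62%, 1.80%, 3.37% and 0.936%, and the chaperone gene Cryab 2.93% in trained 0 h muscle only. Cryab had a gain over 36.9% of its body in untrained 0 h muscle and over 4.37% in both 6 h groups. Of 10 M-band genes, 7 had a loss in each 0 h group, 5 in trained 6 h and 2 in untrained 6 h muscle, and 3 had a gain in trained 0 h, 2 in untrained 0 h, 1 in trained 6 h and 3 in untrained 6 h muscle. Ckm, the muscle creatine kinase bound at the M-band, had 78.6% in both 0 h groups and no loss later. Sqstm1, an autophagy receptor linked to the titin kinase, had 9.12% in trained 6 h and 5.39% in both 0 h groups and untrained 6 h muscle, and Myom3 (myomesin 3) 8.48% in trained 0 h and 6.79% in untrained 0 h muscle. Trim63, the ubiquitin ligase MuRF1, had no loss and lay whole (100%) inside a gained region in trained 0 h muscle. It is named for this gain, after its values were seen.

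Among 9 thick filament genes, 7 had a loss in trained 0 h, 5 in untrained 0 h, 3 in trained 6 h and 1 in untrained 6 h muscle, and 1, 0, 1 and 1 a gain. The fast light chain gene Mylpf (100%) and the fast myosin gene Myh4 (99.5%) were covered by losses in both 0 h groups and had none at 6 h. Mybpc2, the fast myosin-binding protein C, had 67.9% in trained 0 h and 11.7% in trained 6 h muscle. Myl1 had 36.7% in trained 0 h, 38.1% in untrained 0 h and 55.0% in trained 6 h muscle, the largest share of this list in trained 6 h muscle. Among 13 thin filament genes, 11 had a loss in trained 0 h, 8 in untrained 0 h, 5 in trained 6 h and 0 in untrained 6 h muscle, and 1, 1, 1 and 2 a gain. The fast troponin genes Tnnc2 and Tnnt3 were covered whole (100%) in both 0 h groups and Tnni2 in trained 0 h muscle only, and of these only Tnnc2 was covered in trained 6 h muscle. Tpm2 was covered whole (100%) and Tpm1 over 97.9% in trained 0 h, untrained 0 h and trained 6 h muscle alike. Tpm1, Tpm2 and Myl1 are named for their losses at 6 h, after their values were seen.

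Of 5 splicing factors that act on titin RNA, 4 had a loss in trained 0 h, 3 in untrained 0 h, 4 in trained 6 h and 3 in untrained 6 h muscle, and 3, 1, 0 and 2 a gain. Rbm20, the main regulator of titin I-band splicing, had 4.26% of its body lost in trained 0 h, 1.29% in untrained 0 h, 5.44% in trained 6 h and 1.89% in untrained 6 h muscle. It also had gained regions, over 1.77% in trained 0 h, 5.59% in untrained 0 h and 1.27% in untrained 6 h muscle. Rbm24 had 21.7% in each of the trained groups at 0 h and 6 h and no loss in untrained muscle. Its loss was in different places, with a mean position of 10.9% of the gene in trained 0 h and 65.0% in trained 6 h muscle. Mbnl1 had 10.3%, 7.08%, 8.67% and 4.26% in the 4 groups in the order given for Rbm20. In untrained 6 h muscle Ttn at 7.29% was thus above every member of these lists.

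The labelled cell type was checked on regions within 1 kb of a start site. Such a region was listed for 8 of 9 muscle fibre markers, all but Acta1. It was also listed for 1 of 4 endothelial (Tek), 1 of 4 immune (Cd68) and 1 of 4 fibro-adipogenic markers (Dcn). The same held for 2 of 3 satellite cell (Pax7 and Chrdl2) and 1 of 3 smooth muscle markers (Myh11). Pecam1, Cdh5, Ptprc, Pdgfra and Myf5 were among those with none. The sedentary signal per kb ranged from 532 to 2092 among fibre markers. Among the others it reached 1335 at Chrdl2 and 1128 at Myh11, above the fibre markers Myh1 (746), Dmd (681) and Myh2 (532). Only regions that changed in some contrast are listed, so a marker without one is not shown to be closed, and the part of other nuclei in the losses of Ttn was not tested.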

How the data were processed

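ATAC-seq was done by the authors on PCM1+ myonuclei of 21 quadriceps samples in 7 groups of 3. Per the labels and the study's methods, the authors used Trimmomatic 0.39 for trimming, Bowtie2 2.4.4 with SAMtools 1.15 for mapping to GRCm39 and Genrich 0.6.1 for region calling. Exercised groups were contrasted with sedentary muscle in DiffBind 3.4.11, where the authors used DESeq2, and ChIPseeker 1.30.3 served for annotation. The deposited values are DiffBind concentrations, that is, normalised read counts averaged over a group and put on a log2 scale. The normalisation setting is not given in the sources used here, so a shift between groups common to all regions cannot be checked. Only regions under a false discovery rate of 0.05 are listed, and the separate loss and gain tables repeat their rows. The tables also hold the authors' fold changes, p-values and false discovery rates, which were not used.

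Differences were computed here as exercised minus sedentary concentration, in Python 3.11.15 with pandas 2.3.3 and numpy 2.4.6, and tested on simulated data. Genes were placed with GENCODE M39, because the gene positions in the tables lie on another build. An overlap needed 1 base. Shares of all regions use the 41411 regions listed in at least 1 contrast; regions tested but listed nowhere are not in the tables used here. Samples were grouped by their labels, and whether they came from separate animals is not stated there. No test was run. The members, gene lists, motifs and alternatives were chosen with earlier results of these data known. By rule, the text names the start site region, the widest region, those listed in all or gained in any contrast, the 3 largest differences per contrast, the giant muscle genes, up to 3 genes per list by share of body lost, and the 5 genes of at least 50 kb nearest in profile. One gene of the lists is not reported here. Alternatives changed the definition of a Ttn region, the size of difference required and the way regions were averaged.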

Additional observations from a re-analysis of the deposited data

How the results depend on the processing

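No region definition based on position changed a count, a median or a direction beyond the set limits: taking only regions that overlap the body, regions with at least 50% of their width inside it, or regions nearest to a Ttn start site left all 45 values within 1.5 times the count or 1 SD between regions of the median, and averaging by mean, by width or by summed signal left all 15 medians so. Each of these definitions keeps a subset of the 55 regions, none of which was gained, so the gain counts of 0 could not change. The definition by overlap keeps 53 of the 55, which left little room for the other values to move. With gene names as deposited, whose positions lie on another build, the losses came to 13 for trained 0 h, 13 for trained 6 h, 3 for untrained 6 h and 1 for trained 72 h, gains to 2 for trained 0 h and 1 for untrained 6 h, and the median for untrained 6 h to -0.74; of the 15 regions so named in trained 0 h muscle, 8 were Ttn regions by position. Requiring a difference of at least 1 left 7 losses in trained 0 h, 3 in untrained 0 h and 0 in trained 6 h, untrained 6 h and trained 72 h muscle, with 7.30%, 4.06%, 0, 0 and 0 of the body, and a median of -1.08 in trained 0 h muscle. No paired analysis was possible because the tables give group means, and leaving out each replicate could not be run for the same reason. Depth per sample is unknown, so what it limits cannot be given.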
